A study of Mus musculus with 4 samples.

Results

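A set of 10 genes of neuronal differentiation and transmitter use were followed through 4 RNA-seq libraries of whole mouse embryos with and without Ddx6, a DEAD-box RNA helicase that acts in translational repression and mRNA decay. The genes, given by symbol, were Slc17a7, Slc17a6, Gad2, Penk, Pdyn, Dcx, Tubb3, Map2, Nefl and Nefm, and each symbol matched 1 of the 24421 genes in the count table. The members were separated by depth: 6 had at least 50 reads in some library (Penk, Dcx, Tubb3, Map2, Nefl and Nefm), and 4 had fewer in every library (Slc17a7, Slc17a6, Gad2 and Pdyn). The study had plotted neuronal genes from these libraries, so the choice of genes is not independent of the values below.

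The libraries, of strain ICR, were 1 of wild-type (WT) embryos at E7.5, 1 of WT embryos at E8.5 and 2 of Ddx6 -/- embryos at E8.5, called KO1 and KO2. The KO allele lacked exon 5 of Ddx6 after Cre, driven by the ubiquitous CAG promoter, had removed it from a floxed allele, so all tissues carried the deletion. Both KO libraries were pools of embryos and were not at the same stage: KO1 combined an embryo from before head-fold formation with one that had head folds, whereas KO2 held only embryos from before that step. With 1 library for each WT stage, a difference between KO and WT has no check on the spread among WT embryos. RNA of a whole embryo also cannot tell more neuron-type cells apart from more transcript per cell.

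Neurons arise from progenitors of the neural tube. As they leave the cell cycle they build a microtubule and neurofilament skeleton for the axon and dendrites, and later the machinery that makes, packs and releases a transmitter. Glutamate is loaded into synaptic vesicles by the transporters encoded by Slc17a7 (VGLUT1) and Slc17a6 (VGLUT2), GABA is made by glutamate decarboxylases such as that of Gad2 (GAD65), and Penk and Pdyn encode the precursors of the enkephalin and dynorphin opioid peptides. Dcx and Map2 encode microtubule-binding proteins of migrating neurons and of dendrites, Tubb3 the neuronal beta-tubulin, and Nefl and Nefm the light and medium neurofilament subunits. Several of these genes are also expressed outside the nervous system, and many neuronal promoters carry an RE1 element, which the repressor REST binds.

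Promoter windows of 300 bases, from 250 bases before to 50 after a RefSeq transcript start in GRCm38.p6, were at hand for 7 of the 10 members and gave 10 windows for them. The stretches upstream of any annotated exon are printed for Gad2, Slc17a7 and Dcx, 3 of the 5 members that were higher in each KO library than in E8.5 WT, each 5′ to 3′ on the strand of its gene. Capitals mark matches to the core of RE1 (AGCACC, 2 bases of any kind, GGACAG) or to either of its parts AGCACC and GGACAG, on either strand. The Gad2 stretch is chr2:22622077-22622204, that of Slc17a7 is chr7:45163671-45163920, both on the plus strand, and that of Dcx is chrX:143933312-143933469 on the minus strand.
Gad2: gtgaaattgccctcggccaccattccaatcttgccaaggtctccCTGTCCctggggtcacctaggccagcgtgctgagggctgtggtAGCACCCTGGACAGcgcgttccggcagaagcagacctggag
Slc17a7: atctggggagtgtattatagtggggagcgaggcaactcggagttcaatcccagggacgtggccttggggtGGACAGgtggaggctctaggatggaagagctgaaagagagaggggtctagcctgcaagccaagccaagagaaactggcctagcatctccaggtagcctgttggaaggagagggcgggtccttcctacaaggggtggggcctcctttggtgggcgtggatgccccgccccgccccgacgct
Dcx: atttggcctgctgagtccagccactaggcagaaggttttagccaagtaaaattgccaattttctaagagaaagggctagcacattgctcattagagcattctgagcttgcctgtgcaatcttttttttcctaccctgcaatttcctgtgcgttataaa
Among the members with a window, the RE1 core was found in Gad2 alone, at 163 to 150 bases before the RefSeq start; 17 of 32851 mouse windows hold it, or 0.0517%. The parts overlap the core and are common: AGCACC was in 16.2% of all windows and GGACAG in 22.2%. The E-box letters CAGCTG, found in 16.3% of all windows, were in no member window, and CATCTG (17.2%) and TGACG (20.8%) were each in those of Gad2 and Slc17a6. These are matches of letters in short windows, not measured binding sites.

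The libraries held 8198402 to 12562640 reads assigned to genes, and 16511 to 17112 genes had a read in each. Ddx6 itself had 2943 reads in the E7.5 WT library and 5715 in the E8.5 WT library, against 706 in KO1 and 929 in KO2. Its log2 change from E8.5 WT was -2.47 for KO1 and -2.61 for KO2 (mean -2.54 ± 0.10, SD, n = 2), so both libraries labelled KO had less Ddx6 than either WT library. Levels below are CPM (counts scaled to a common library total) after TMM scaling, and changes are differences in log2 CPM with a prior count of 2 added. A gene is called higher or lower where the change passes 1 or -1 on the log2 scale, which is a rule of size and not a test. Intervals are exact 95% binomial (Clopper-Pearson) intervals of the scaled ratio of reads in a pair of libraries, without the prior count, and cover counting error only.

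**Figure D1:**
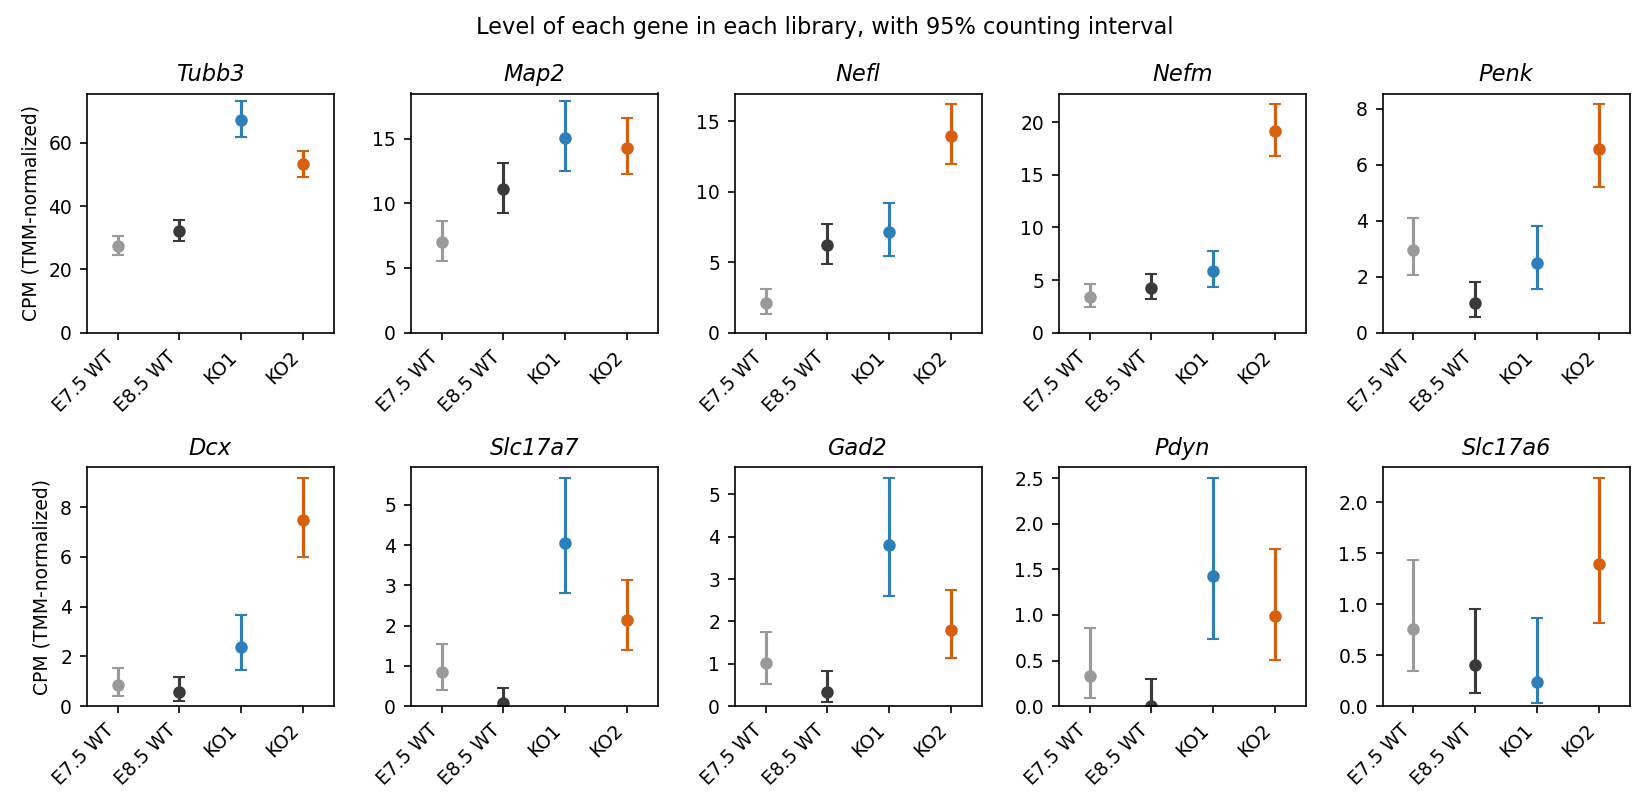
TMM-scaled CPM of each of the 10 members, with 1 panel per gene on its own linear axis. Each panel has 1 point per library and the exact 95% counting interval as a line. Tubb3, at 27.4 to 67.4 CPM, stands above the other members in all 4 libraries, and Pdyn has no read in E8.5 WT.

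The vesicular glutamate transporters were at the edge of detection. Slc17a7 (chromosome 7, 45163949 to 45176142, plus strand) had 10 reads in the E7.5 WT library and 1 in the E8.5 WT library, against 34 in KO1 and 26 in KO2, or 0.841, 0.0814, 4.05 and 2.13 CPM. Both KO libraries thus lay above both WT libraries. The ratio to the single read of E8.5 WT was 49.8 in KO1 (interval 8.35 to 2022) and 26.2 in KO2 (4.31 to 1075), so its size is poorly known. With the prior count the log2 change was 4.02 in KO1 and 3.15 in KO2 (mean 3.59 ± 0.62, SD, n = 2), and against E7.5 WT it was 2.05 and 1.18. Slc17a6 (chromosome 7, 51622006 to 51671119, plus strand) had 9 reads in the E7.5 WT library and 5 in the E8.5 WT library, against 2 in KO1 and 17 in KO2. The KO libraries were at either end of the range, with both WT libraries between them. Against E8.5 WT its log2 change was -0.49 for KO1 (interval -4.17 to 1.84) and 1.43 for KO2 (0.28 to 3.57). The 2 transporter genes therefore did not share a pattern across the libraries. The third family member, Slc17a8 (VGLUT3), picked out after its values had been seen, had at most 4 reads in any library.

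Gad2 (chromosome 2, 22622205 to 22693874, plus strand) had 12 reads in the E7.5 WT library and 4 in the E8.5 WT library, against 32 in KO1 and 22 in KO2, or 1.01, 0.325, 3.81 and 1.81 CPM. The lowest library was E8.5 WT and the KO libraries were the 2 highest. Its log2 change from E8.5 WT was 2.98 for KO1 (interval 2.05 to 5.51) and 1.98 for KO2 (0.91 to 4.47), with a mean of 2.48 ± 0.71 (SD, n = 2). Against E7.5 WT it was 1.75 and 0.74, past the threshold in KO1 alone. The second glutamate decarboxylase gene, Gad1 (GAD67), and the vesicular GABA transporter gene, Slc32a1, were read off after their values had been seen and ran otherwise. Gad1 had 13, 29, 9 and 20 reads in the WT libraries by age, then KO1 and KO2, and Slc32a1 had 22, 14, 6 and 1, so neither was above E8.5 WT in both KO libraries.

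Of the opioid precursors, Penk (chromosome 4, 4133531 to 4138819, minus strand) had 35 reads in the E7.5 WT library and 13 in the E8.5 WT library, against 21 in KO1 and 80 in KO2, or 2.94, 1.06, 2.50 and 6.56 CPM. E8.5 WT was the lowest library and KO2 the highest, while KO1 lay below E7.5 WT, so the KO and WT groups overlapped. Its log2 change from E8.5 WT was 1.12 for KO1 (interval 0.18 to 2.36) and 2.45 for KO2 (1.78 to 3.60), and against E7.5 WT it was -0.22 and 1.11. Pdyn (chromosome 2, 129686565 to 129699844, minus strand) had 4 reads in the E7.5 WT library, 0 at E8.5 WT and 12 in both KO1 and KO2. A floor of 3 counts stands for 0.244 CPM in E8.5 WT, and the exact interval of a count of 0 reaches 0.300 CPM. Against that floor Pdyn was at least 5.85-fold higher in KO1 and at least 4.03-fold higher in KO2, and with the counting error of its 12 KO reads included, the intervals of the ratio began at 2.02 and 1.49 on the log2 scale. Against E7.5 WT its log2 change was 1.64 in KO1 (interval 0.36 to 4.18) and 1.18 in KO2 (-0.17 to 3.64), so at this depth the second difference was within counting error. Of the receptors for these peptides, picked out after their values had been seen, Oprm1 had no read in any library, Oprd1 had 16, 26, 26 and 50 reads and Oprk1 had 5, 23, 15 and 16 in the WT libraries by age, then KO1 and KO2.

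Of the microtubule genes, Dcx (chromosome X, 143855842 to 143933311, minus strand) had 10 reads in the E7.5 WT library and 7 in the E8.5 WT library, against 20 in KO1 and 91 in KO2, or 0.841, 0.570, 2.38 and 7.47 CPM. The WT libraries were both low, and the KO libraries were both higher and far apart from each other. The log2 change from E8.5 WT was 1.77 for KO1 (interval 0.76 to 3.55) and 3.35 for KO2 (2.61 to 5.07), with a mean of 2.56 ± 1.12 (SD, n = 2). Against E7.5 WT it was 1.33 and 2.91. By the rule of size, Slc17a7, Pdyn and Dcx were higher in each KO library than at either WT stage. Of these, Dcx alone belonged to the 6 members with at least 50 reads in a library. It reached 50 reads in KO2 alone, so the excess described here placed it in that class. Nothing is therefore read from its being the only one of the 6. Dclk1, a relative of Dcx picked out after its values had been seen, had 139, 70, 70 and 310 reads in the WT libraries by age, then KO1 and KO2.

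Tubb3 (chromosome 8, 123411424 to 123422015, plus strand) was the best covered member, with 326 reads in the E7.5 WT library and 396 in the E8.5 WT library, against 566 in KO1 and 650 in KO2, or 27.4, 32.2, 67.4 and 53.3 CPM. The groups did not overlap, and the KO libraries were less than 1.5-fold apart. Against E8.5 WT the log2 change was 1.06 for KO1 (interval 0.88 to 1.25) and 0.72 for KO2 (0.54 to 0.91), so both exceeded counting error and KO1 alone passed the threshold. Against E7.5 WT it was 1.29 and 0.96. Map2 (chromosome 1, 66175273 to 66442583, plus strand) had 83, 136, 126 and 174 reads in the same order, or 6.98 and 11.1 CPM in the WT libraries and 14.6 ± 0.513 CPM in KO (SD, n = 2). Its KO libraries were nearly equal and stood slightly above E8.5 WT, by 0.43 in KO1 (interval 0.08 to 0.80) and 0.36 in KO2 (0.04 to 0.70) on the log2 scale. Against E7.5 WT the difference in log2 CPM was 1.09 and 1.01.

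The neurofilament genes share a place on chromosome 14, where Nefl lies within the annotated span of Nefm on the opposite strand. Nefl (68083863 to 68089095, plus strand) had 25 reads in the E7.5 WT library and 76 in the E8.5 WT library, against 60 in KO1 and 170 in KO2, or 6.18 CPM at E8.5 WT, against 7.14 in KO1 and 14.0 in KO2. KO1 was close to E8.5 WT, with a log2 change of 0.20 (interval -0.30 to 0.72), and KO2 was above it, with 1.15 (0.78 to 1.58). Against E7.5 WT the log2 change was 1.68 in KO1 and 2.63 in KO2. Nefm (68082590 to 68124846, minus strand) had 40, 52, 49 and 233 reads in the same order, or 3.36, 4.23, 5.83 and 19.1 CPM. Its other libraries were close together, and KO2 stood apart above them. Its log2 change from E8.5 WT was 0.45 for KO1 (interval -0.13 to 1.06) and 2.13 for KO2 (1.74 to 2.64), and against E7.5 WT it was 0.76 and 2.45. The exons of the pair overlap on opposite strands over 1108 bases, as do those of Map2 and Gm10558 over 124 and of Penk and A830012C17Rik over 233. Reads were counted by strand in these libraries.

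**Figure D2:**
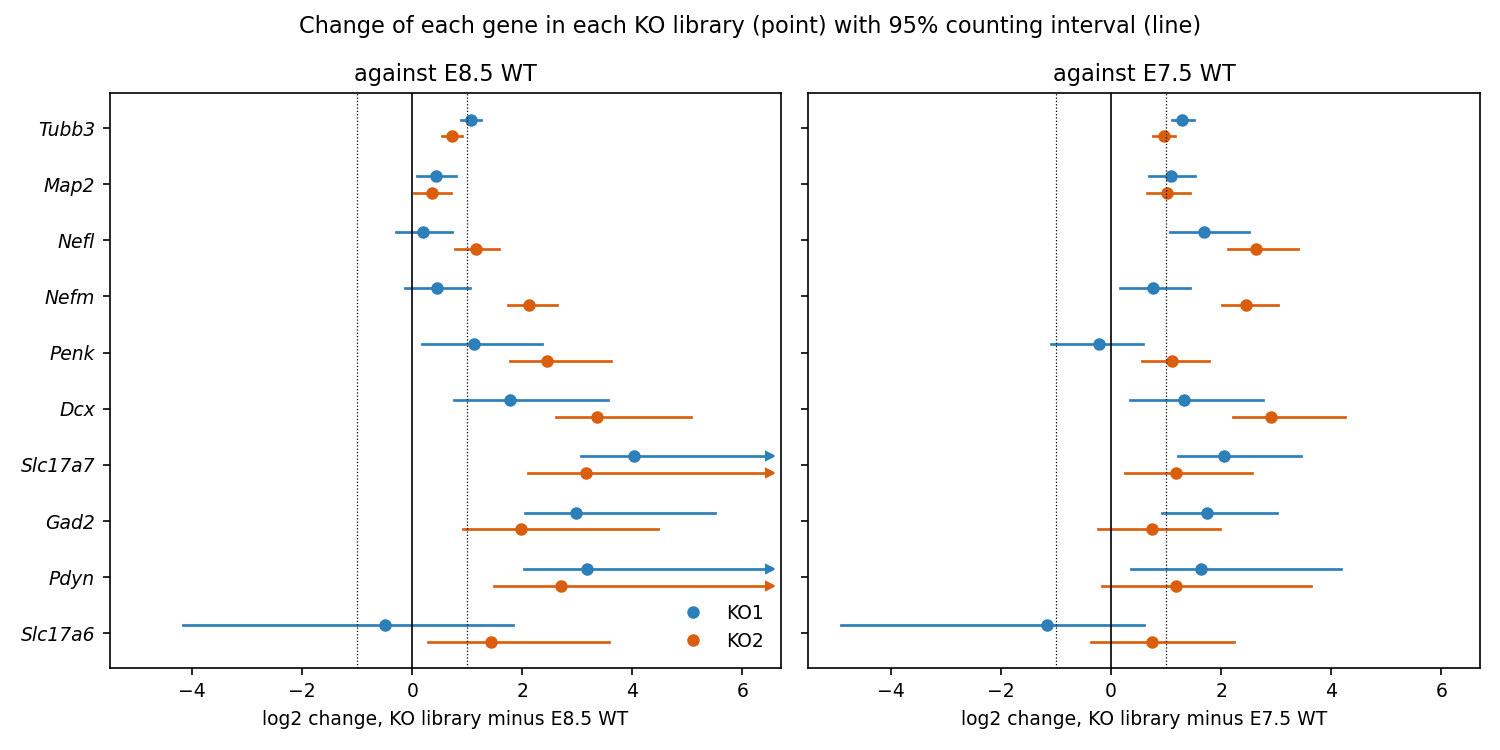
Log2 change of each of the 10 members in KO1 and KO2 against E8.5 WT and against E7.5 WT. Points are differences in log2 CPM with a prior count of 2, lines are exact 95% counting intervals of the ratio without it, arrows mark intervals that run past the axis, and dotted lines mark the threshold of 1; against E8.5 WT all points except Slc17a6 in KO1 (-0.49) lie above 0.

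Set against E8.5 WT, 5 of the 10 members were higher in both KO libraries (Slc17a7, Gad2, Penk, Pdyn and Dcx) and 0 were lower. Of all 14393 genes with at least 10 counts in a library, 3.44% were called higher in both and 1.79% lower. Depth divides this count: the rule called 9.63% of genes whose highest library had 10 to 49 reads but 2.17% of better covered genes, and it called 3 of the 4 members with few reads and 2 of the other 6. Those 2, Penk and Dcx, reached 50 reads in KO2 alone, the library where they were highest, so their place among the better covered genes was set by the excess being counted and nothing is read from 2 of 6 beside 2.17%. Pdyn entered the 14393 genes only through the KO libraries and Slc17a6 only through KO2, so a KO excess in these was in part a condition of their being measured. KO1 alone had 6 members past the threshold (background 4.97%) and KO2 alone had 8 (9.41%). The median change over the 10 members was 1.09 in KO1 and 2.05 in KO2, beside -0.01 and 0.00 over the 14393 genes. With Pdyn set to its change from a floor of 3 counts in E8.5 WT, the median of the members was 1.09 and 1.99. The interval of Pdyn in KO2 began below that change, at 1.49 on the log2 scale.

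The difference from E8.5 WT did not pass the test across genes for any member. In edgeR's quasi-likelihood test, whose spread rests on the KO libraries with 1 residual degree of freedom, 0 of the 14393 genes had an adjusted p under 0.05, and the lowest adjusted p of a member was 0.666. At an unadjusted edgeR p under 0.05, 5 members were higher in KO: Slc17a7, Tubb3, Pdyn, Gad2 and Dcx, each with that same adjusted value. In that direction the same held for 4.35% of all genes tested, and in the other for 2.96% and 0 members. DESeq2, which gave an adjusted p for 5 of the 10 members, called 14 genes higher (0.118%) and 17 lower (0.143%) after adjustment, and 0 of them were members. Before adjustment it had 3 members higher at a p under 0.05 (Slc17a7, Dcx and Tubb3), beside 2.4% of all genes. Ddx6, the deleted gene, did not pass after adjustment in edgeR but was among the genes that DESeq2 called lower, with a log2 change of -2.54 in both.

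The members that differed from E7.5 WT were partly others. In both KO libraries 5 members were higher than E7.5 WT (Slc17a7, Pdyn, Dcx, Map2 and Nefl), against 6.91% of all genes, and 0 were lower, against 2.7%. These shares and those of the later comparisons cover genes of all depths and are not matched to members with few reads. Against E8.5 WT the rule called 9.63% of genes with 10 to 49 reads higher and 2.17% of better covered genes. Slc17a7, Pdyn and Dcx were past the threshold against both WT libraries, as were 0.75% of all genes. Pdyn passed the count filter only through the KO libraries, so its excess in the counts given here was in part a condition of its being measured. Its KO2 interval against E7.5 WT also spanned 0 (-0.17 to 3.64). Without a threshold, both KO libraries lay above both WT libraries in 8 of the 10 members, all except Slc17a6 and Penk, beside 18.4% of all genes, and 0 members lay below both, beside 17.6%. The comparisons with the WT stages share the KO libraries and are not separate evidence. With edgeR 0 members passed after adjustment against E7.5 WT, where Tubb3 had the lowest adjusted p (0.132). At an unadjusted edgeR p under 0.05, Tubb3, Nefl and Map2 were higher in KO, as were 13.8% of all genes, and 0 members were lower, beside 10.6%. DESeq2, with an adjusted p for 4 members, had 0 members among the genes called higher (3.58%) or lower (2.64%) after adjustment, and 2 higher before it (Tubb3 and Nefl, beside 8.17% of all genes).

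Between the WT stages, with 1 library each and no test, 4 members with transmitter roles were lower at E8.5 and a neurofilament gene was higher. Slc17a7, Gad2, Penk and Pdyn were lower at E8.5 than at E7.5 by the rule of size (changes -1.97, -1.24, -1.34 and -1.53 in log2 CPM), as were 7.82% of all genes. Nefl was higher (1.48), as were 12.2% of all genes. The counting interval lay below 0 for Slc17a7 and Penk and above 0 for Nefl, Map2 (0.65) and Tubb3 (0.23), and spanned 0 for the other 5 members. This comparison and that of KO with E8.5 WT use the same single E8.5 WT library, so for example Gad2, at -1.24 between the WT stages and 2.48 between KO and E8.5 WT, rests on the same 4 reads in both.

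The KO libraries differed from each other in 5 of the 10 members by the rule of size. KO2 was above KO1 for Slc17a6, Penk, Dcx and Nefm, by 1.92, 1.33, 1.58 and 1.68 in log2 CPM, beside 5.99% of all genes past the threshold in that direction. KO2 was below KO1 for Gad2, by -1.01, beside 4.89% of all genes. Slc17a7 (-0.87) and Tubb3 (-0.34) were also lower in KO2 with intervals below 0, Nefl (0.95) was higher with an interval above 0, and the intervals of Map2 (-0.07) and Pdyn (-0.47) spanned 0. The KO pools differed in embryo stage as well as in embryos, so the spread between them cannot be told apart from a difference in stage.

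Levels can be compared between genes only per length, here as RPKM (CPM per kilobase of exon) with exon lengths from GENCODE transcripts matched to RefSeq. Tubb3 was first in all 4 libraries, at 14.7 RPKM in the E7.5 WT library and 17.2 in the E8.5 WT library, against 36.1 in KO1 and 28.6 in KO2, and its counting interval was apart from that of the next gene in each. In E8.5 WT it was followed by Nefl (1.83 RPKM), Nefm (1.27), Map2 (1.10) and Penk (0.730), neighbours whose intervals overlapped. After a gap, Slc17a6 (0.0983 RPKM), Dcx (0.0616), Gad2 (0.0567), Slc17a7 (0.0279) and Pdyn (0) came last, again with overlapping neighbours. Over the KO libraries the mean level was 32.3 ± 5.32 RPKM for Tubb3, 3.74 ± 2.82 for Nefm, 3.13 ± 1.98 for Penk and 3.12 ± 1.42 for Nefl (SD, n = 2). Map2 had 1.46 ± 0.0511 RPKM, Slc17a7 1.06 ± 0.465, Dcx 0.533 ± 0.389, Pdyn 0.506 ± 0.132, Gad2 0.489 ± 0.247 and Slc17a6 0.197 ± 0.198. The order differed between the KO libraries: after Tubb3 came Nefl, Nefm and Penk in KO1 but Nefm, Penk and Nefl in KO2. Dcx lay below Slc17a7 in KO1 (0.258 against 1.39 RPKM) and next to it in KO2 (0.808 against 0.732, with overlapping intervals). Slc17a7 was close to Map2 in KO1, at 1.39 against 1.49 RPKM, and below it in KO2, at 0.732 against 1.42.

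Other genes of the same systems, in 6 lists, were for the most part not called. Of the proneural and neuronal transcription factors, 15 of 30 had enough reads; 0 were higher in each KO library than in E8.5 WT and 1 was lower, Ebf3, with 18, 109, 24 and 15 reads in the WT libraries by age, then KO1 and KO2. Their median change was -0.62 in KO1 and -0.88 in KO2. Neurod2, Neurod6 and St18, factors of differentiating neurons, had no read in any library, and Neurod1 had at most 2; these 4 were picked out after their values had been seen. Of the genes of transmitter synthesis and transport, 15 of 24 had enough reads, with 1 higher (Tph1, tryptophan hydroxylase, 6, 1, 5 and 50 reads), 1 lower (Slc1a2, a glutamate uptake transporter, 6, 64, 14 and 7 reads) and medians of -0.03 and 0.01. Of the other neuropeptides, processing enzymes and opioid receptors, 14 of 28 were measured and Trh alone was called, higher, with 1003, 240, 857 and 2865 reads; the medians were 0.15 and 0.31.

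Of the other tubulins, microtubule-associated proteins and stathmins 28 of 31 were measured, and of the other intermediate filaments 13 of 14, with 0 called in either direction in either list. Their medians against E8.5 WT were 0.11 in KO1 and 0.33 in KO2 for the first and 0.60 and 0.82 for the second. Nefh, the heavy neurofilament gene, had 53, 59, 39 and 65 reads in the WT libraries by age, then KO1 and KO2, and Ina, of alpha-internexin, had 307, 193, 219 and 509; both were picked out after their values had been seen. All 32 pan-neuronal and synaptic genes were measured, of which 2 were higher, 1 was lower and 29 were not called. Elavl3, of a neuronal RNA-binding protein, had 353, 87, 150 and 676 reads and L1cam, of an adhesion molecule of axons, had 171, 53, 88 and 552, each lowest in E8.5 WT and highest in KO2. Nova1, of a neuronal splicing factor, was lower, with 72, 169, 54 and 50 reads. The medians of this list were 0.15 and 0.47, beside 1.09 and 2.05 for the 10 members. The members were chosen with earlier results of these data known, and Pdyn and Slc17a6 passed the count filter only through KO libraries. Nothing is therefore read from the higher medians of the members. In edgeR's test 0 genes of any list passed after adjustment.

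**Figure D3:**
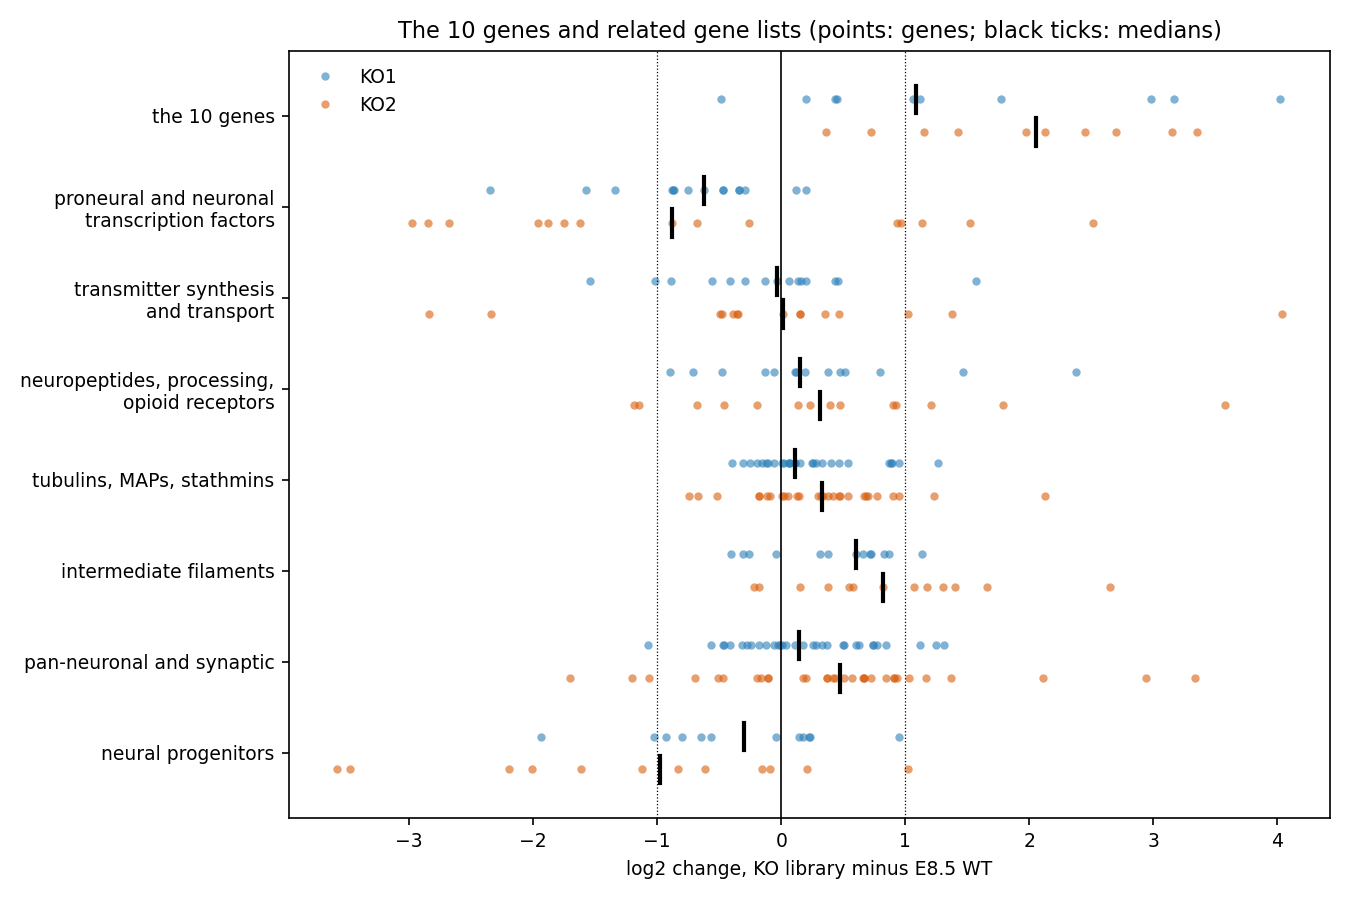
Log2 change against E8.5 WT in KO1 and KO2 for the measured genes of the members and of 7 lists of related genes, neural progenitors included. Not all genes of these lists are neuronal, as the intermediate filaments include keratins and lamins. There is 1 point per gene, with black ticks at the medians and dotted lines at the threshold of 1. The medians of the members (1.09 and 2.05) lie above those of the other lists, but the members were chosen with earlier results of these data known. The medians of the transcription factors (-0.62 and -0.88) and of the neural progenitors (-0.30 and -0.98) lie below 0 in both KO libraries.

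Marker lists of other tissues also differed between the libraries, and their part in the results on the members was not tested. The summed level of 13 neural progenitor genes was 380 CPM in the E7.5 WT library and 611 in the E8.5 WT library, against 524 in KO1 and 459 in KO2, and both Sox1 and Pax6 were called lower in KO. Sox1 had 13, 533, 178 and 42 reads and Pax6 10, 180, 31 and 14 in the WT libraries by age, then KO1 and KO2. The 32 pan-neuronal and synaptic genes summed to 492, 555, 673 and 800 CPM, so the KO libraries were the higher ones there. The 10 epiblast genes summed to 2201, 591, 788 and 3251 CPM, with 3 higher in both KO libraries, Nanog and Fgf5 among them, and Dppa4 lower. KO2 and E7.5 WT were thus far above E8.5 WT and KO1 in this sum. Most of it was Dnmt3b, with 18206, 5529, 4802 and 28440 of the 26179, 7263, 6617 and 39622 reads. Esrrb (532, 37, 22 and 33 reads) and Dppa4 (129, 10, 2 and 1) were low in KO2 as in KO1 and E8.5 WT. Dnmt3b and Esrrb were picked out after their values had been seen. Penk also had KO2 and E7.5 WT highest, although its KO1 level was nearer to E7.5 WT than to E8.5 WT.

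The summed levels of genes of the tissues around the embryo were also highest in KO2, although a few genes carried these sums. The 13 trophoblast genes summed to 433 CPM in the E7.5 WT library and 307 in the E8.5 WT library, against 526 in KO1 and 954 in KO2, with Prl3d1 (27, 1, 3 and 4156 reads) and Prl2c2 (3, 0, 4 and 1400 reads) called higher. Others of this list ran otherwise, such as Cdx2 (990, 1326, 653 and 150 reads), Elf5 (795, 3, 3 and 10) and Ascl2 (358, 10, 11 and 54), and Tpbpa and Prl3b1 were at 0 in all libraries; these 5 were picked out after their values had been seen. The 10 decidual genes summed to 237, 117, 184 and 257 CPM, with Prl8a2 at 1318, 26, 64 and 1433 of the 2814, 1435, 1542 and 3126 reads. The 12 uterine natural killer genes had 39, 4, 30 and 287 reads in all (3.28, 0.325, 3.57 and 23.6 CPM), and the 8 with enough reads were higher in each KO library than in E8.5 WT, Gzmg with 8, 0, 7 and 53 reads among them. Of these 8, 7 reached 10 reads in KO2 alone, so the filter largely fixed that direction. Gzmk, picked out after its values had been seen, was at 0 throughout. E8.5 WT had the lowest sum in each of these 3 lists, as it had the lowest level of Slc17a7, Gad2, Penk, Pdyn and Dcx. Those members were the ones that the rule of size called against E8.5 WT. A low level there was thus largely a condition of their being named. The remaining members ran otherwise: Tubb3, Map2, Nefl and Nefm were lowest in E7.5 WT, and Slc17a6 was lowest in KO1.

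**Figure D4:**
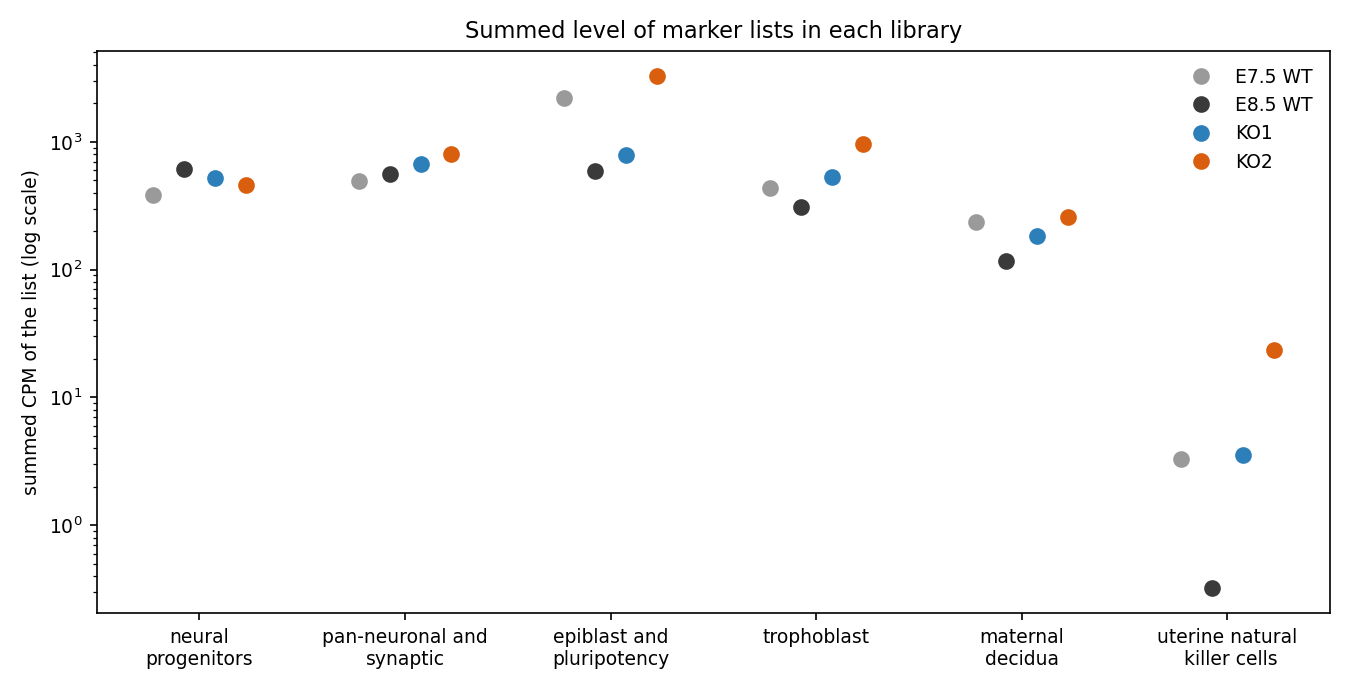
Summed TMM-scaled CPM of each marker list in the 4 libraries, on a log axis, with 1 point per library. KO2 has the highest sum in the epiblast, trophoblast, decidua, uterine natural killer and pan-neuronal lists, and E8.5 WT has the highest sum in the neural progenitor list.

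The genes closest in pattern to the 6 better covered members were sought among 11941 genes with at least 50 reads in a library, by the Euclidean distance of log2 CPM centred on its mean over the 4 libraries. The nearest were Ptgds (0.180) and Trim12c (0.193) for Penk, Adgrg6 (0.231) and Prrg4 (0.428) for Dcx, and Fkbp10 (0.101) and Me1 (0.120) for Tubb3. For Map2 they were Crebrf (0.0506) and Afap1 (0.0593), for Nefl A830018L16Rik (0.337) and Pde1c (0.347), and for Nefm Cd200 (0.119) and Pde10a (0.178). None of these 12 was another member. Distances over 4 libraries describe likeness only.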

How the data were processed

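RNA was extracted with TRIzol and sequenced from stranded poly(A) libraries. Per the labels and the study's methods, the authors trimmed reads with Cutadapt 2.8, checked them with FastQC 0.11.7, aligned them to mm10 with HISAT2 2.1.0 and SAMtools 1.9, and counted reads on exons by strand with featureCounts 2.0.0; the deposited values are raw counts per gene. From these, TMM factors (0.978 to 1.02) and log2 CPM with a prior count of 2 were computed in edgeR 4.0.16 under R 4.3.3, for the 14393 genes that reached 10 counts in some library. Calls needed a log2 change above 1 or below -1, in each KO library. The quasi-likelihood test used 3 groups with Benjamini-Hochberg adjustment over all genes kept; DESeq2 1.42.0, other scalings, filters, prior counts and thresholds, and leaving out a KO library were alternatives. Whether the KO pools were independent of each other was not stated beyond their embryos, so p-values measure the spread between those 2 libraries. A floor of 3 counts is 0.244 to 0.357 CPM. The members, lists and alternatives were chosen with earlier results of these data known; the text names all members, called genes of each other list with at least 50 reads in a library (at most 3 a list) and the 2 nearest profiles of each better covered member, and says where a gene was chosen after its values were seen. Positions are GRCm38 (GENCODE vM21), the assembly of mm10; figures used matplotlib 3.10.9.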

Additional observations from a re-analysis of the deposited data

How the results depend on the processing

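Of the member counts past the threshold under each alternative, 45 stayed within 1.5 times the value reported and 11 moved. Of the changes of single members, 126 moved by less than the spread between KO libraries and 4 moved by more. Much of the 126 was fixed in advance, so it is no measure of robustness. Leaving out 1 of the 2 KO libraries can only shift a mean by less than their SD. Other count filters left the change of each remaining member as it was. Of the members not called, 2 changed sign against E7.5 WT when a KO library was left out: Penk went from 0.45 to -0.22 without KO2, and Slc17a6 from -0.21 to 0.76 without KO1. With at least 50 counts required in a library, 2 members were higher in each KO library than in E8.5 WT (Penk and Dcx), 3 were higher than in E7.5 WT, 1 was lower in E8.5 WT than in E7.5 WT (Penk) and 0 were lower in KO2 than in KO1, because the few-read members leave the table; Penk and Dcx reach 50 counts in KO2 alone, so this filter selected them by the excess it counts. With a threshold of 2 on the log2 scale, the count against E8.5 WT was 2 (Slc17a7 and Pdyn) and those against E7.5 WT, between WT stages and between KO libraries were all 0. Leaving out a KO library gave 6 (KO1 alone) to 8 (KO2 alone) members higher than E8.5 WT and 7 with either against E7.5 WT. Without a filter on low counts, edgeR called 728 genes against E7.5 WT, 1 of them a member (Tubb3), and 8 genes and 0 members against E8.5 WT. With a prior count of 0.5 Slc17a7 and Pdyn were on average 4.57 and 4.79 above E8.5 WT in log2 CPM, and without TMM factors that of Map2 was 0.46 against E8.5 WT and 1.10 against E7.5 WT. Both scalings other than TMM kept every member count within 1.5 times, but the members called against E7.5 WT changed. Map2 was no longer called with DESeq2 size factors, and Tubb3 was called as well without factors. No paired analysis was possible because each WT stage had 1 library without a replicate number and only the KO libraries were numbered. Depth limits Slc17a7, Slc17a6, Gad2 and Pdyn most: with 0 to 34 reads a library, the size of their changes is known only within wide intervals.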
